A study of Rattus norvegicus and Mus musculus with 9 samples.

Results

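The genes described here are 10 negative-feedback genes and FGF-responsive transcription factors of the ERK pathway: the phosphatase genes Dusp4, Dusp5 and Dusp6, the Sprouty genes Spry1, Spry2 and Spry4, the Spred genes Spred1 and Spred2, and the ETS-family genes Etv4 and Etv5. They were chosen by name, and all 10 were found among 14506 named genes of the rat table and 19938 of the mouse table. Where a symbol had several probe sets, the one with the highest average signal in its table stands for the gene. In the rat table each of the 10 had 1 probe set, and in the mouse table Spred2 and Etv5 had 2.

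Signals were measured on 9 arrays. Mouse embryonic stem (ES) cells of strain C57/BL6 (3 arrays) were grown in GMEM medium with 10% fetal bovine serum and LIF, and their feeder cells were removed before RNA extraction. Rat ES cells of the DA strain (3 arrays) were grown in 3I medium. The labels do not list the contents of 3I, a name used for mixtures of small-molecule inhibitors of the FGF receptor, of MEK and of GSK3. Rat embryonic fibroblasts, also DA (3 arrays), were grown in GMEM with 10% serum. ES cells are cultured cells of the early embryo that can form all its tissues, and fibroblasts are matrix-producing connective tissue cells. The labels name neither separate cultures nor the sex or passage of the cells, so the p-values given here measure the spread between arrays, which may be technical.

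ERK is the last kinase of a cascade that runs from growth factor receptors such as those for FGF through RAS, RAF and MEK. Active ERK switches on its own inhibitors: DUSP phosphatases take the activating phosphates off ERK, while Sprouty and Spred proteins dampen the signal between receptor and RAF. Etv4 and Etv5 encode ETS transcription factors of the PEA3 group, whose transcription follows FGF signalling in many embryonic tissues. Transcripts of these genes are therefore widely read as a gauge of ERK activity. In mouse ES cells, FGF-driven ERK signalling moves cells out of the naive state, and inhibitors of MEK are used to hold them in it.

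The labels were checked against markers. All 8 measured ES markers were called higher in rat ES cells (Pou5f1 at a mean log2 signal of 11.20 in rat ES cells and 4.15 in fibroblasts, Nanog at 11.13 and 4.40, Sox2 at 10.64 and 6.20). Of 12 fibroblast markers, 10 were called lower, among them Thy1 (5.60 in rat ES cells, 10.34 in fibroblasts) and Col3a1 (8.28 and 12.76). Col1a1 stood at 10.15 in rat ES cells and 13.89 in fibroblasts, so collagen signal was also present on the rat ES arrays. The mean signal of the 12 fibroblast markers was 6.92 to 7.34 on the rat ES arrays and 10.65 to 10.72 on the fibroblast arrays. On the mouse ES arrays 6 of the 8 ES markers lay at mean percentiles of 85.2 to 99.5 among the symbols in both tables, with Pou5f1 the highest. Klf4 and Dppa3 lay lower there, at 60.8 and 49.3, against 80.8 and 98.9 in rat ES cells. Among 7 neural and trophoblast markers the calls were mixed, 2 higher (Cdx2 and Krt8) and 1 lower (Nes). Cdx2, a transcription factor gene of trophoblast, stood at 9.06 in rat ES cells and 5.26 in fibroblasts (log2 difference 3.80), and at mean percentiles of 27.9 in mouse ES cells and 87.4 in rat ES cells. Krt8, a keratin gene, stood at 7.96 in rat ES cells and 5.92 in fibroblasts (2.04), and Hand1 at 6.05 and 6.14. For primitive endoderm, 3 of the 7 measured genes passed as lower and 0 as higher. The mean signal of that list was 5.27 to 5.33 on the rat ES arrays and 6.54 to 6.69 on the fibroblast arrays. Its percentiles were higher in mouse ES than in rat ES cells for 6 genes and lower for 1, without overlap. Of all shared symbols, 44.9% were higher and 42.5% lower. Dab2 had mean percentiles of 78.9 in mouse ES and 30.4 in rat ES cells, and Sox17, the lower gene, 17.0 and 31.3. The part of these markers in the differences of the 10 genes was not tested. The mean signal of the neural and trophoblast markers was 6.38 to 6.48 on the rat ES arrays and 5.75 to 5.84 on the fibroblast arrays, and their part in the differences of the 10 genes was not tested. Array medians over all probe sets were 5.71 to 5.74 in the rat table and 4.75 to 4.77 in the mouse table. Precision is limited by the small number of arrays.

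Promoter sequence is shown for 3 of the genes, to set the letters near the transcription start beside the way each gene differed between the rat groups. The sequences come from RefSeq (rat, build GRCr8), run 5′ to 3′ on the strand of the gene and cover 250 bases before to 50 after an annotated start. Windows were found for 8 of the 10 genes, 9 windows in all, with none for Dusp4 and Etv4. Dusp6, which had lower signal in rat ES cells than in fibroblasts, is shown for the octamer bound by Capicua, a repressor of Etv4, Etv5 and related genes that ERK signalling relieves. It was searched on both strands as TGAATGAA, TGAATGGA, TCAATGAA and TCAATGGA. Spry2 and Dusp5, which both had higher signal in rat ES cells, are shown for the core site of ETS factors, CCGGAA on either strand. Capitals mark every match to either motif, and no matches overlapped.
Dusp6 (chr7:35979354-35979653, + strand): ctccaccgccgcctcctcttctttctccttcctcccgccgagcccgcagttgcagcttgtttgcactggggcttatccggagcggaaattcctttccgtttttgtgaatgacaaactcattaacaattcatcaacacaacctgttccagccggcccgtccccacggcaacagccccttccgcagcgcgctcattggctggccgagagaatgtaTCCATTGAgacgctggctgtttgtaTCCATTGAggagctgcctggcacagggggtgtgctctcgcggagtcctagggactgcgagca
Spry2 (chr15:89111877-89112176, - strand): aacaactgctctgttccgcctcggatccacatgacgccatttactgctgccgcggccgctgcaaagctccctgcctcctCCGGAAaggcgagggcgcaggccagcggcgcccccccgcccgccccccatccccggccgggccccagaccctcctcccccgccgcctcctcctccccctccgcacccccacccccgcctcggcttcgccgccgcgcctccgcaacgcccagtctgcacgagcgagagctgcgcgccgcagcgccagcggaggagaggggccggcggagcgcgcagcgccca
Dusp5 (chr1:262543524-262543823, + strand): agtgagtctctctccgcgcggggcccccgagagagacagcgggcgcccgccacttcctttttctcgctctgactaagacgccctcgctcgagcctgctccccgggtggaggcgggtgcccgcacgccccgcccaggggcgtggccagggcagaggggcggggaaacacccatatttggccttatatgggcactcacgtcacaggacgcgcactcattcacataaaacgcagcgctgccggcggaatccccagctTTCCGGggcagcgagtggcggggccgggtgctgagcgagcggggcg

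The Dusp6 window held the Capicua octamer at 2 places, beginning 37 and 12 bases before the start, both reading TCCATTGA on the printed strand. In the window of Spry4 it began 198 bases before the start. Dusp6 and Spry4 were 2 of the 8 genes with a window, and the octamer occurred in 4.26% of 33469 RefSeq windows of the same length. The ETS core was found in Spry2 (171 bases before the start, in the printed one of its 2 windows), Spry4 (81 before) and Dusp5 (5 after), and in 15% of all windows. The AP-1 motif TGANTCA was in none of the 9 windows and in 7.33% of all. No match to the 3 motifs was found in the windows of Spry1, Spred1, Spred2 and Etv5. Spry4, which was lower in rat ES cells, thus held both the octamer and the ETS core, and Etv5, which was higher, held neither. The 9 windows were 56.0 to 76.3% G and C, beside a median of 51.7% over all windows. The shares over all windows are therefore not from windows of like base content. The matches are descriptions of letters and were not tested as sites.

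The first comparison set rat ES cells in 3I medium against rat fibroblasts in serum. Dusp4, Dusp5, Spry2, Etv4 and Etv5 were called higher in rat ES cells, Dusp6 was called lower, and Spry1, Spry4, Spred1 and Spred2 differed by less than 2-fold. The set thus did not move as a block: members of the Dusp and Sprouty families lay on both sides of 0. A gene was called at a Benjamini-Hochberg adjusted p under 0.05 in limma, over all 14506 genes, and a difference of at least 2-fold. By that rule 20.7% of all genes were called, 10.6% higher and 10.1% lower, against 5 higher and 1 lower of the 10 genes. At the adjusted p alone, with no threshold on fold, all 10 passed, 6 higher and 4 lower, where 56.3% of all genes did (30.9% higher, 25.5% lower). The median log2 difference of the 10 was 1.07, beside -0.0007 over all genes, and the median size of their differences was 1.31, beside 0.32. Medium and cell type differed together between the rat groups, so their parts in any difference cannot be told apart, nor can more cells with a transcript be told from more transcript per cell.

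**Figure D1:**
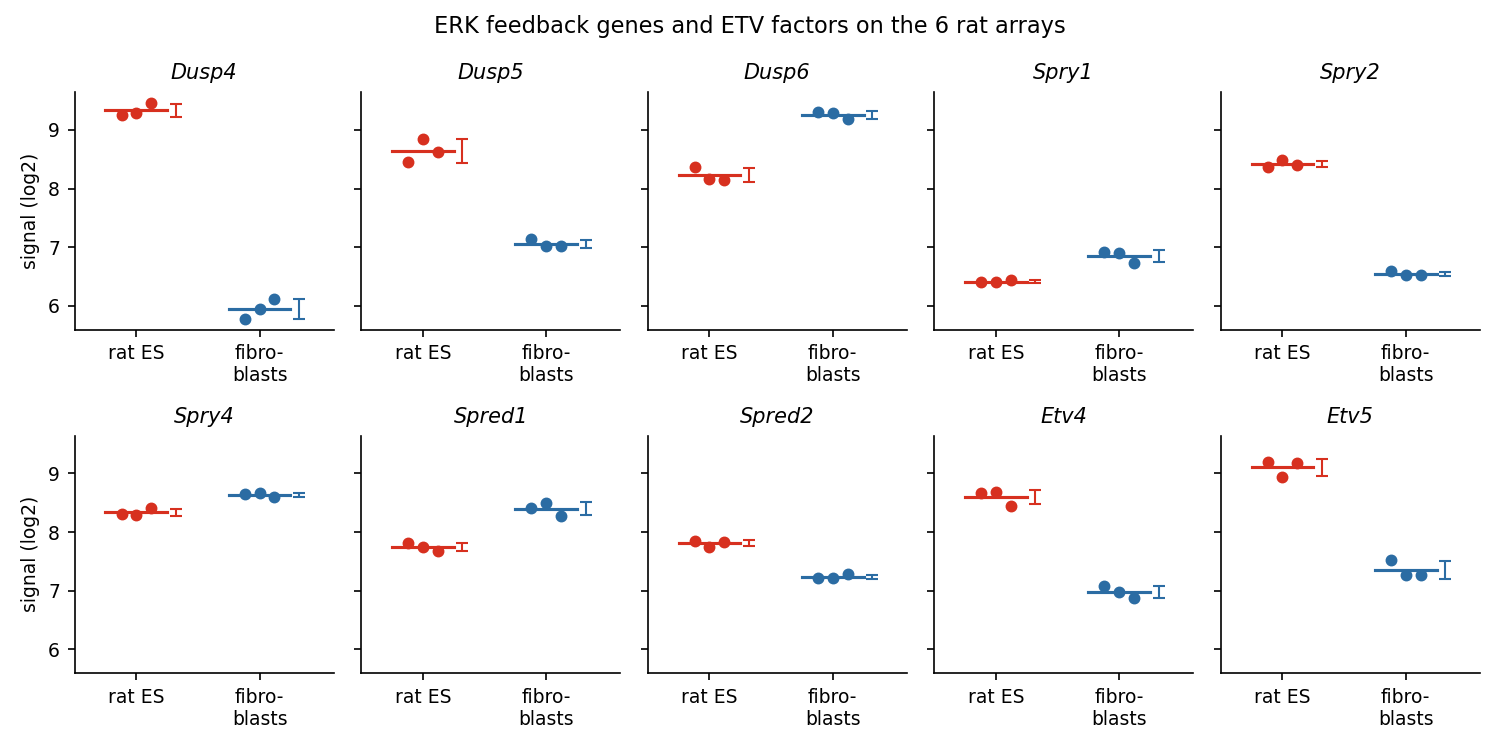
Log2 signal (vertical axis) of each of the 10 genes on the 3 rat ES arrays (red, left) and the 3 rat fibroblast arrays (blue, right); points are arrays, horizontal bars the means and whiskers the SD. The groups are apart in every panel, with Dusp4 the widest (9.26 to 9.46 in rat ES cells, 5.78 to 6.12 in fibroblasts) and Spry4 the narrowest (8.29 to 8.41 in rat ES cells, 8.59 to 8.66 in fibroblasts).

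Among the phosphatases, Dusp4 differed the most. It encodes a nuclear phosphatase that acts on ERK and on the stress kinases JNK and p38. Its log2 signals were 9.26, 9.28 and 9.46 on the rat ES arrays and 5.78, 5.95 and 6.12 on the fibroblast arrays. The 2 groups lay far apart, and the fibroblast values lay just above the array medians of all probe sets. Among the symbols in both tables their mean percentile was 38.1. Rat ES cells averaged 9.34 ± 0.110 (SD, n = 3) and fibroblasts 5.95 ± 0.171 (SD, n = 3), a log2 difference of 3.39 (10.5-fold, SE 0.10, limma adjusted p = 3.07e-08) that ranked 96 from the top of 14506 genes. Since the fibroblast signal was not separated from background, the size of this difference and its rank are uncertain.

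Dusp5 encodes a nuclear phosphatase specific for ERK. It had log2 signals of 8.45, 8.85 and 8.62 in rat ES cells and 7.14, 7.02 and 7.02 in fibroblasts. All rat ES values were above all fibroblast values, and their spread was the widest of the 10 genes in rat ES cells (SD 0.203, n = 3). The difference was 2.99-fold (log2 1.58, SE 0.11, limma adjusted p = 2.71e-06).

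Dusp6 ran the other way. It encodes the cytoplasmic phosphatase of ERK that is the classical FGF-responsive feedback gene. Its log2 signals were 8.36, 8.16 and 8.15 in rat ES cells and 9.30, 9.29 and 9.18 in fibroblasts. Every rat ES array lay below every fibroblast array, by a log2 difference of -1.04 (SE 0.08, limma adjusted p = 6.84e-06), 2.05-fold lower in rat ES cells. That is just past the threshold of 2-fold. After each array was centred on its median over the named genes, the difference was -0.97 and Dusp6 was no longer called. Dusp6 ranked 1403 from the bottom of all genes, and its rat ES signal remained well above the array medians.

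**Figure D2:**
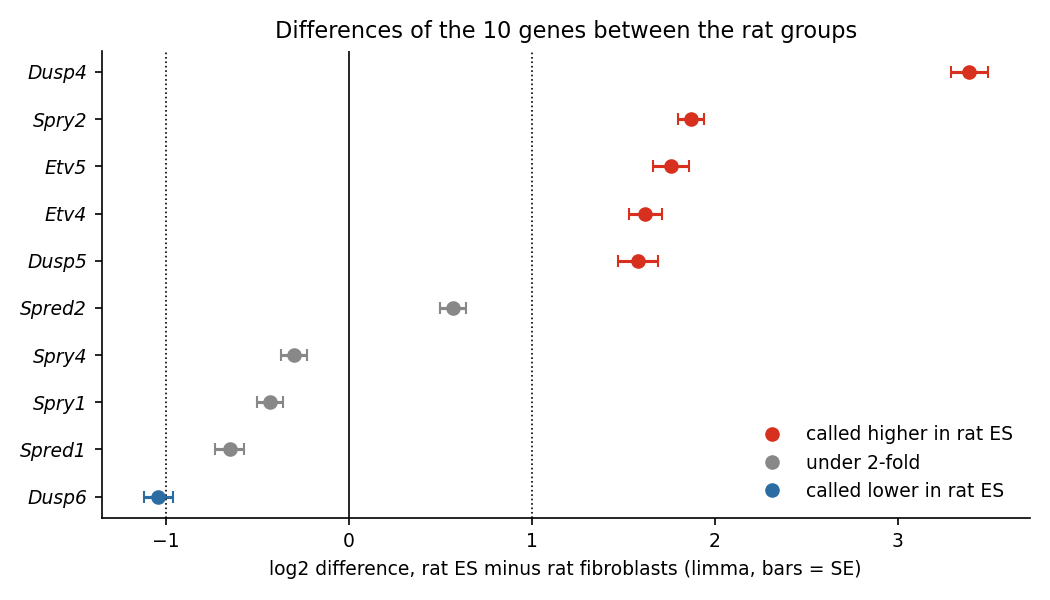
Log2 difference, rat ES minus rat fibroblasts (horizontal axis), of the 10 genes in order of size, with SE bars from limma and dotted lines at a 2-fold difference. Dusp4 stands apart at 3.39, Spry2, Etv5, Etv4 and Dusp5 lie together between 1.58 and 1.87, and Dusp6 sits on the lower line at -1.04.

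Of Spry1, Spry2 and Spry4, Sprouty genes whose products block growth factor signalling upstream of ERK, only Spry2 was called. Spry2 had log2 signals of 8.37, 8.48 and 8.40 in rat ES cells and 6.59, 6.52 and 6.53 in fibroblasts. Both groups were tight (SD 0.054 in rat ES cells and 0.039 in fibroblasts, n = 3 each) and did not overlap. The difference was 3.66-fold (log2 1.87, SE 0.07, limma adjusted p = 6.48e-08), and Spry2 ranked 449 from the top.

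Spry4 had log2 signals of 8.30, 8.29 and 8.41 in rat ES cells and 8.65, 8.66 and 8.59 in fibroblasts. The groups did not overlap, but the difference was only -0.30 (SE 0.07, limma adjusted p = 0.00483). Spry1 had 6.40, 6.40 and 6.44 in rat ES cells and 6.92, 6.90 and 6.73 in fibroblasts (difference -0.43, SE 0.07, limma adjusted p = 0.000998). Both were thus lower in rat ES cells by less than 2-fold, 1.23-fold for Spry4 and 1.35-fold for Spry1.

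The Spred genes encode Sprouty-related membrane proteins that bring neurofibromin to RAS, and they differed in opposite directions, both by less than 2-fold. Spred1 had log2 signals of 7.82, 7.74 and 7.68 in rat ES cells and 8.41, 8.50 and 8.28 in fibroblasts (difference -0.65, SE 0.08, limma adjusted p = 0.000132). Spred2 had 7.85, 7.75 and 7.83 in rat ES cells and 7.22, 7.22 and 7.28 in fibroblasts (difference 0.57, SE 0.07, limma adjusted p = 8.02e-05). Neither gene overlapped between the groups.

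The ETV factors differed by similar amounts. Etv4 had log2 signals of 8.66, 8.68 and 8.45 in rat ES cells and 7.08, 6.97 and 6.88 in fibroblasts, 3.07-fold higher in rat ES cells (log2 1.62, SE 0.09, limma adjusted p = 7.73e-07). Etv5 had 9.20, 8.94 and 9.18 in rat ES cells and 7.53, 7.27 and 7.26 in fibroblasts, 3.38-fold higher in rat ES cells (log2 1.76, SE 0.10, limma adjusted p = 1.24e-06). Both groups were separate for both genes. Etv5 ranked 522 and Etv4 621 from the top of all genes.

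Groups did not overlap for any of the 10 genes, 6 higher and 4 lower in rat ES cells, which was also the case for 61.5% of all genes (33.2% higher, 28.3% lower). On rat ES array 3 the fibroblast markers lay above their values on array 1 in 12 of 12 genes, with a median log2 gap of 0.38. The 10 genes moved by a median of 0.01 between the same arrays, with 5 of 10 higher on array 3. Since 6 of the 10 genes were higher and 4 lower in rat ES cells, their pooled median does not bear on fibroblast-like RNA. The part of such RNA in the differences of the 10 genes was not tested.

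Whether paralogues changed unequally was examined within each array, as the difference of log2 signals between 2 genes of a family, over 8 pairs. The change of this difference between the rat groups is what was compared, since signals of different probe sets are not on a common scale. With 3 arrays against 3, the exact two-sided permutation test cannot give a p below 0.1. Dusp4 minus Dusp6 was 0.91, 1.12 and 1.31 in rat ES cells and -3.52, -3.34 and -3.07 in fibroblasts, which is a shift of 4.43, whose size is uncertain for the same reason. No rat ES value overlapped a fibroblast value. Dusp5 minus Dusp6 shifted by 2.62 and Dusp4 minus Dusp5 by 1.81.

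In the Sprouty family, Spry2 minus Spry4 averaged 0.08 ± 0.098 in rat ES cells (SD, n = 3 each) and -2.09 ± 0.050 in fibroblasts, which is a shift of 2.17. Spry1 minus Spry2 shifted by -2.31. Spry1 minus Spry4 shifted by -0.14, or by -0.02 after quantile normalization. Spred1 minus Spred2 was -0.06 ± 0.079 in rat ES cells and 1.16 ± 0.145 in fibroblasts, which is a shift of -1.22. In these 7 pairs of Dusp, Sprouty and Spred genes the groups did not overlap. Each had an exact permutation p of 0.1, or 0.114 after Benjamini-Hochberg adjustment over 8 pairs. For Dusp6 with Dusp4 or Dusp5, Spry2 with Spry1 or Spry4, and Spred1 with Spred2, the genes of a pair differed in opposite directions without overlap. Separation of those pairs was therefore fixed by the single genes and adds no support. The share of other gene pairs that separate was not computed. Etv4 minus Etv5 was -0.54, -0.27 and -0.73 in rat ES cells and -0.45, -0.30 and -0.38 in fibroblasts. Those values overlapped (shift -0.14, exact permutation p = 0.5), so unequal change of the ETV pair was not detectable with these arrays.

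**Figure D3:**
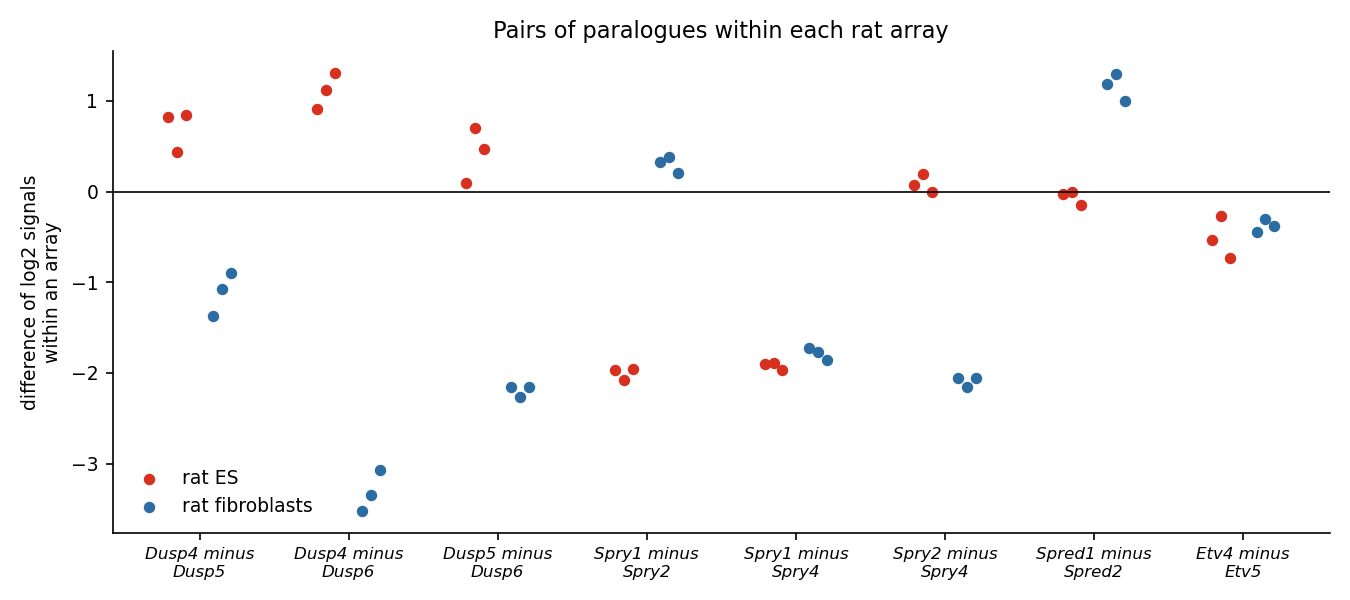
Difference of log2 signals between 2 paralogues within an array (vertical axis) for 8 pairs, on the rat ES arrays (red, left) and the rat fibroblast arrays (blue, right); each point is 1 array. The widest gap is that of Dusp4 minus Dusp6, with 0.91 to 1.31 in rat ES cells and -3.52 to -3.07 in fibroblasts, and the Etv4 minus Etv5 points overlap.

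Mouse ES cells were then set beside rat ES cells. The mouse arrays are another platform normalized apart, so each gene was given as its percentile within its array, among the 12114 symbols in both tables. Dusp6, Spry1, Spry2, Spry4, Spred1, Spred2, Etv4 and Etv5 ranked higher in mouse ES cells than in rat ES cells, and Dusp4 and Dusp5 ranked lower. The percentiles of the mouse ES and rat ES arrays did not overlap for any of the 10, but 87.4% of all shared symbols did not overlap either, 44.9% with mouse ES above and 42.5% below. The separation itself is therefore no result about these genes. The median difference, mouse ES minus rat ES, was 11.9 percentile points over the 10 genes and 0.3 over all shared symbols.

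Values on the mouse arrays were unusually alike. Pairs of mouse arrays shared 16691 to 20845 identical values of 35557, where pairs of rat arrays shared 6 to 30 of 29215. Dusp5, Spry1 and Etv4 had the same deposited value on all 3 mouse arrays, so small differences in their percentiles come from the other genes, and no SD over mouse arrays is given. Species, strain, medium and platform all differ between mouse ES and rat ES cells and cannot be told apart. With 3 arrays against 3, the exact two-sided permutation p was 0.1 for each gene, the smallest that the design allows. It counts the mouse arrays as 3 independent measurements, which they may not be.

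Dusp6 lay at percentiles of 95.4, 95.3 and 95.3 in mouse ES cells and 77.8, 74.1 and 74.1 in rat ES cells, a difference of 19.9 points. Among the 10 genes only Spred2 differed more, by 22.1 points (91.9, 87.5 and 91.1 in mouse ES cells, against 69.5, 66.6 and 68.1 in rat ES cells). Its other mouse probe set ranked lower, at 85.8 to 86.1, and left a difference of 17.9 points. Spry1 had a mean percentile of 64.2 in mouse ES cells and 46.4 in rat ES cells, where it lay below the middle of the shared symbols.

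Spry2 lay at 94.6, 94.4 and 95.1 in mouse ES cells and 78.0, 79.2 and 78.1 in rat ES cells. Spry2 was thus called higher in rat ES cells than in rat fibroblasts, yet ranked 16.3 points higher again in mouse ES cells. Spred1 was 12.2 points and Spry4 11.6 points higher in mouse ES cells. The ETV genes had the smallest gaps of the 10, with Etv4 at means of 89.5 in mouse ES cells and 81.0 in rat ES cells and Etv5 at 96.5 and 87.9. With the other mouse probe set of Etv5 the gap was 3.3 points, at a mean of 91.2 in mouse ES cells.

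Dusp4 and Dusp5 were the exceptions. Dusp4 lay at 77.4, 78.1 and 78.1 in mouse ES cells and 89.7, 89.6 and 91.4 in rat ES cells, a difference of -12.4 points. Dusp5 lay at 64.5, 65.7 and 64.4 in mouse ES cells and 79.2, 84.6 and 81.4 in rat ES cells, a difference of -16.8 points. Dusp6 lay on the other side.

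**Figure D4:**
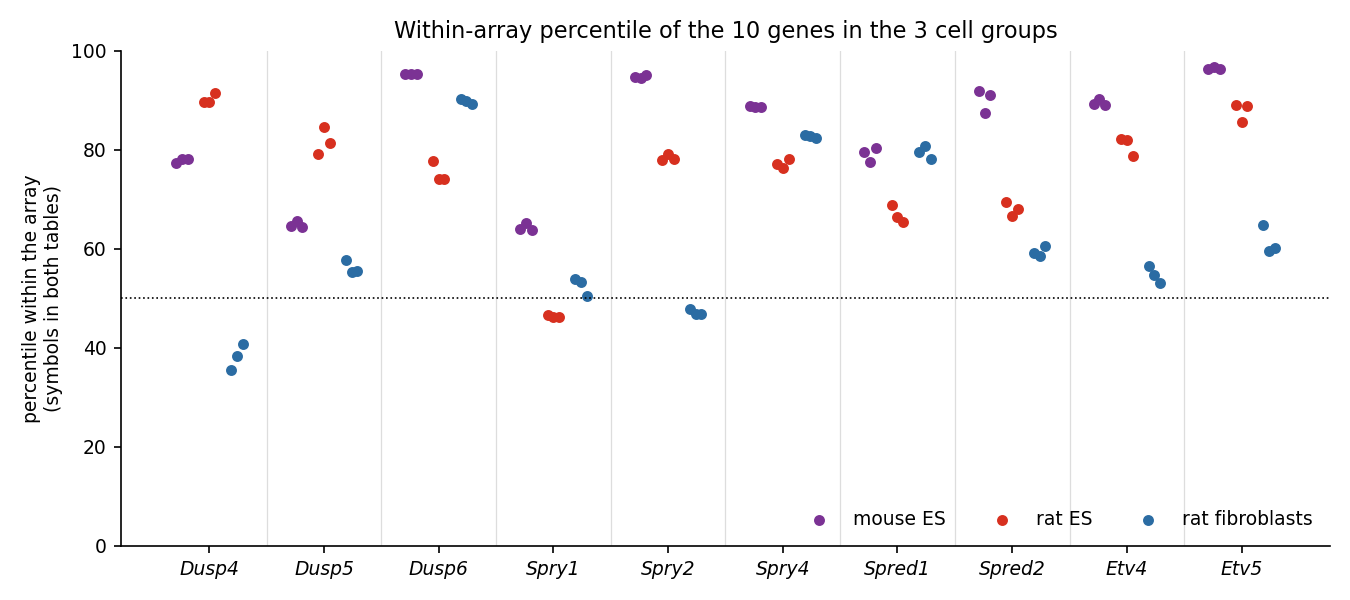
Percentile within the array (vertical axis, among symbols in both tables) of the 10 genes on the 3 mouse ES (purple), 3 rat ES (red) and 3 rat fibroblast arrays (blue). Each point is 1 array, and the dotted line marks the middle of those symbols. Mouse ES points lie above the rat ES points for 8 genes and below them for Dusp4 and Dusp5.

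The order of the 3 groups fell into few patterns. Spry2, Spred2, Etv4 and Etv5 ranked in the order mouse ES, rat ES, rat fibroblasts from high to low. Dusp6, Spry1 and Spry4 ranked in the order mouse ES, rat fibroblasts, rat ES. Dusp4 and Dusp5 had rat ES cells first, mouse ES cells next and fibroblasts last. Spred1 had mouse ES cells and rat fibroblasts side by side (77.5 to 80.4 in mouse ES cells, 78.1 to 80.7 in fibroblasts), with overlapping values, and rat ES cells below both. Against the rat fibroblasts, 9 of the 10 genes ranked higher in mouse ES cells without overlap and 0 ranked lower. Of all shared symbols, 47.3% were higher and 42.1% lower. Species, strain, cell type, LIF and platform all differ between mouse ES cells and rat fibroblasts and cannot be told apart. The median percentile of the 10 genes was 89.1 in mouse ES cells, 77.8 in rat ES cells and 57.8 in rat fibroblasts.

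Other genes of the pathway were then read from 4 lists, against the same background of 20.7% of genes called between the rat groups. ERK-induced transcripts outside the 10 genes, most of them immediate early genes that answer growth factors within minutes, went one way. Of 18 measured, 11 were called lower in rat ES cells and 0 higher, with a median log2 difference of -1.59. Epha2, named after its value was seen, differed the other way by 0.71, under 2-fold. The zinc finger gene Egr1 fell by 4.44 on the log2 scale, with 5.66, 4.80 and 5.02 in rat ES cells and 9.57, 9.70 and 9.53 in fibroblasts (limma adjusted p = 2.26e-07). The growth factor gene Hbegf (-3.87), Dusp1 (-3.66) and the proto-oncogene Myc (-3.31) followed. In rat ES cells Egr1 and Myc lay below the array medians, which leaves the size of their differences uncertain.

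The same list ranked higher in mouse ES cells than in rat ES cells for 14 of 18 genes and lower for 4, without overlap, beside 44.9% and 42.5% of all shared symbols. Its median difference was 17.9 percentile points. The primitive endoderm markers also had a median of 17.9 points, and the neural and trophoblast markers 15.4. A shift of that size was therefore not particular to ERK-induced transcripts. Medians of the remaining pathway lists were -1.3 (other brakes), -4.2 (receptor to ERK cascade) and -1.7 (nuclear effectors and ETS factors). Myc stood at a mean percentile of 91.6 in mouse ES cells and 10.9 in rat ES cells, Dusp1 at 96.8 and 51.0, Hbegf at 73.1 and 47.1, and Egr1 at 59.8 and 26.3. In their rank between the 2 kinds of ES cells, most of these transcripts and 8 of the 10 feedback and ETV genes therefore lay on the same side. Between rat ES cells and fibroblasts those 8 divided. Dusp6, called lower, and Spry1, Spry4 and Spred1, each lower by less than 2-fold, lay on the side of Egr1, Hbegf, Dusp1 and Myc. Spry2, Etv4 and Etv5, called higher, and Spred2, higher by less than 2-fold, lay on the other side.

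Of 18 other brakes on ERK signalling, 5 were called lower and 2 higher, with a median log2 difference of -0.68. Dusp1, which encodes a nuclear phosphatase of stress kinases and ERK and stands in both lists, was lower, as were the RAS GTPase-activating gene Rasa3 (-2.15) and Spry3 (-1.98), the remaining Sprouty paralogue. In rat ES cells Spry3 (5.44, 5.44 and 4.68) lay below the array medians and Rasa3 (mean 5.98) just above them. The size of both differences is therefore uncertain. Dusp10, whose product acts mainly on JNK and p38, was higher by 3.63, with 9.12, 9.50 and 9.36 in rat ES cells and 5.75, 5.56 and 5.78 in fibroblasts (SE 0.11, limma adjusted p = 3.12e-08). It thus lay on the side of Dusp4, and as for Dusp4 its fibroblast signal, near the array medians, leaves the size of the difference uncertain. In mouse ES cells it ranked at a mean percentile of 24.8, against 90.2 in rat ES cells.

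Of 18 genes of the cascade from receptor to ERK, 2 were called higher and 1 was called lower, a share near the 20.7% of all genes, and the median log2 difference was 0.18. The RAF kinase gene Araf (2.13) and the adaptor gene Gab1 (1.53) were higher in rat ES cells and the receptor gene Fgfr2 (-3.02) was lower. Fgfr2 lay below the array medians in rat ES cells (5.07, 5.26 and 5.21), which leaves the size of its difference uncertain. Of 13 nuclear effectors and ETS factors, 1 was called in each direction. Etv1, the third PEA3-group gene, was higher by 1.20, with 8.57, 8.29 and 8.13 in rat ES cells and 7.08, 7.18 and 7.14 in fibroblasts (limma adjusted p = 2e-05). It thus shared its direction with Etv4 and Etv5, whereas the ternary complex factor gene Elk3 fell by 4.31. Elk3 lay near the array medians in rat ES cells (5.93, 5.85 and 5.90), so the size of its difference is uncertain too. Against mouse ES cells Etv1 differed from its paralogues, with a mean percentile of 64.3 in mouse ES cells and 77.1 in rat ES cells.

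**Figure D5:**
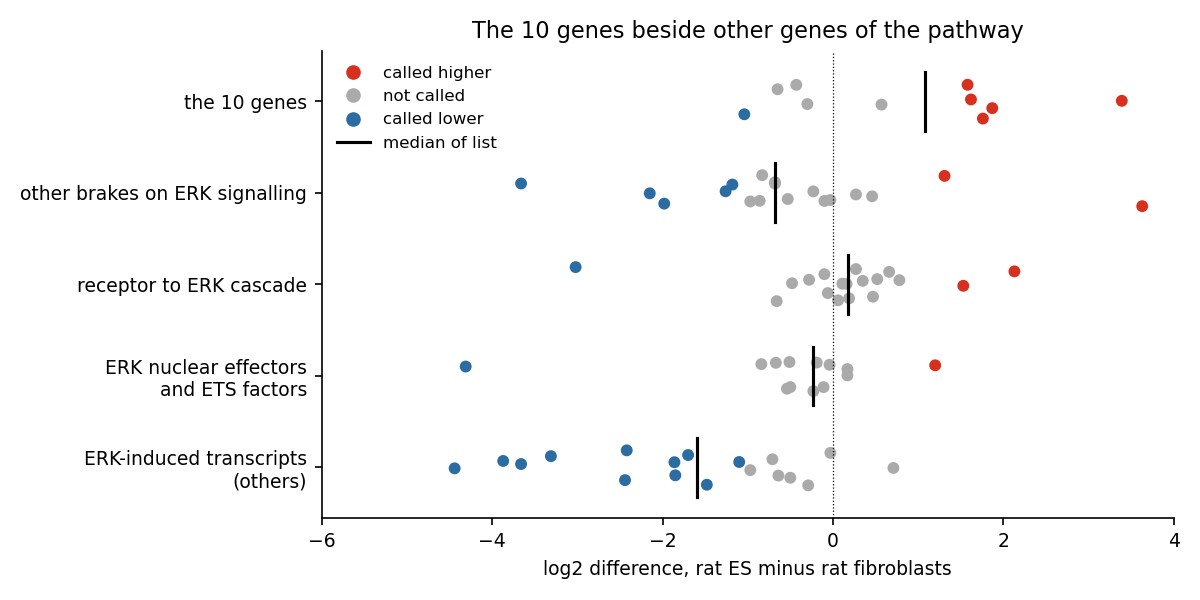
Log2 difference, rat ES minus rat fibroblasts (horizontal axis), of every measured gene of the 10 and of 4 pathway lists; each point is a gene, coloured by its call, and the black bars are list medians. The median of the 10 genes lies at 1.07 and that of the ERK-induced transcripts at -1.59.

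The genes most like each called gene over the 6 rat arrays were taken by Pearson's r of log2 signals, among genes called in the same direction. They were Il3ra and Cln3 for Dusp4, Cers4 and Wars1 for Dusp5, and Ccdc8 and Pcsk6 for Dusp6. For Spry2 they were Mtor and Fam234a, for Etv4 Gtf2h4 and Mthfd1l, and for Etv5 Ube2d1 and Siae. The correlations were 0.9990 to 0.9999 over 6 arrays. With 2 groups of 3 arrays, r is set mainly by the group means, and the order among near-equal values carries little information.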

How the data were processed

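Total RNA was labelled with biotin as fragmented single-stranded DNA and hybridized to arrays, as the labels' protocols state. The authors deposited log2 signals per probe set in 2 tables, of 6 rat and 3 mouse arrays. The log2 scale was read from the range of the values, while background correction, normalization and genome build are not stated in the labels or tables; these deposited values were used unchanged. Probe sets were named by the platform annotation, and those with several symbols (323 rat, 1621 mouse) or none listed (13582 rat, 12147 mouse) were left out.

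The rat groups were fitted in limma (version 3.58.1, R version 4.3.3; lmFit and eBayes with group as the single term), with Benjamini-Hochberg adjustment across 14506 genes and no filter on level. The main fit did not pair the arrays by the replicate numbers of the labels. Deviations from the group means of same-numbered arrays correlated at -0.00044, 0.031 and -0.0003. Such values cannot show whether same-numbered arrays were processed together. Mouse and rat arrays were compared as within-array percentiles. The 10 genes, the pathway lists, the motifs and the tests were chosen with earlier results of these data known. Named beyond the 10 are the 4 called genes with the largest difference of each pathway list, the 2 genes most like each called gene, marker genes, and genes said in the text to be chosen after their values were seen. Alternatives were other normalizations, level filters, probe set rules, eBayes settings, thresholds, the replicate block and leaving out each array.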

Additional observations from a re-analysis of the deposited data

How the results depend on the processing

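In the comparison as reported, 2996 genes were called between the rat groups, 5 of the 10 genes higher and 1 lower, and 22 genes of the pathway lists. With no fold threshold 8172 genes were called, 6 of the 10 higher and 4 lower, and 51 of the pathway lists. At 1.5-fold 5077 genes were called, 5 of the 10 higher and 2 lower, and 35 of the pathway lists. After each array was centred on its median over the named genes, 0 of the 10 genes were called lower. Dusp6 then moved to -0.97 (limma adjusted p = 1.51e-05). All 4 genes lower in rat ES cells kept a limma adjusted p under 0.05 in every setting (highest 0.0218, for Spry4). Over the other settings the counts of the 10 genes stayed at 5 higher and 1 lower, and none of the 10 changed sign. The replicate block gave 2996 genes called, 5 higher and 1 lower of the 10, as without it, and changed no call among the 10. Leaving out each array gave 2994 to 3035 genes called, 5 of the 10 higher and 1 lower each time, and 21 to 23 genes of the pathway lists. Of the pair contrasts, Etv4 minus Etv5 ranged from -0.26 to -0.03 without single arrays. Chosen after seeing the data, the restriction to symbols with 3 different mouse values left 4 of the 10 genes (Dusp4, Spry2, Spred1 and Spred2). All 4 did not overlap between mouse ES and rat ES cells. Without that restriction 87.4% of all shared symbols did not overlap either, so the separation is no result about these genes. Averaging the mouse arrays as 1 sample and using the other mouse probe sets kept the direction of every gene. Probe sets with signals near the array medians, such as Dusp4 in fibroblasts, were not separated from background here.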

Other observations

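A further phosphatase gene, Dusp9, which encodes a cytoplasmic phosphatase of ERK and was named after its values were seen, ranked at a mean percentile of 94.3 in mouse ES cells and 47.0 in rat ES cells. Between the rat groups it differed by only 0.27 on the log2 scale (6.47 in rat ES cells, 6.20 in fibroblasts, limma adjusted p = 0.0269). In both rat groups Dusp9 lay below the middle of the shared symbols (mean percentiles 47.0 and 42.0). Its rat signal was not separated from background, so the size of both differences is uncertain. Of the 8 Dusp genes in the pathway lists, Dusp1, Dusp8 and Dusp9 ranked higher in mouse ES cells than in rat ES cells without overlap. Dusp2 and Dusp10 ranked lower, while Dusp3, Dusp7 and Dusp16 overlapped. Of all shared symbols, 44.9% ranked higher and 42.5% lower without overlap, so the separation is no result about these genes. Dusp7, another gene of a cytoplasmic ERK phosphatase, stood at 74.6 in mouse ES cells and 75.8 in rat ES cells, and Dusp8 at 51.5 and 35.7. Ccnd1, the cyclin D1 gene, also named after its values were seen, stood at 92.4 in mouse ES cells and 58.8 in rat ES cells, and was lower by a log2 difference of -2.44 in rat ES cells than in fibroblasts.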
